A study of Homo sapiens with 6 samples.

Results

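Mitochondria and the endoplasmic reticulum (ER) are shaped by GTPases related to dynamin, and the mRNA levels of 10 genes of that machinery were examined in SW620 cells. The 10 genes were chosen by name, with 1 row each in the deposited table of 60835 gene names. They are the outer-membrane fusion GTPases MFN1 and MFN2, the inner-membrane fusion GTPase OPA1, the fission GTPase DNM1L, its membrane receptors FIS1, MFF and MIEF1, and the ER fusion GTPases ATL1, ATL2 and ATL3. SW620 is an established line of human colon cancer cells that was grown from a lymph node metastasis. The series compared 3 libraries of cells with a control short hairpin vector (shControl, genotype given as WT, batch_A) with 3 libraries whose cells are labelled as carrying a stable DNM1 knockdown (shDNM1, genotype given as DNM1 Knockdown, batch_B). All cells were grown in the same medium with serum. Batch and vector coincide and cannot be told apart in any value below, and the labels used here do not say whether a group's libraries came from separate cultures, so p-values reflect no more than the variation among these libraries, which may be technical.

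In this machinery, mitofusins tether and merge the outer membranes of neighbouring mitochondria and OPA1 merges the inner membranes and keeps cristae closed. DNM1L is cytosolic until MFF, MIEF1 or FIS1 holds it at the outer membrane, where it assembles into rings that constrict the organelle. MFF and FIS1 also recruit it to peroxisomes. Atlastins join ER tubules into the branch points of the ER network. ATL1 is known as the form most abundant in neurons, while ATL2 and ATL3 are the forms of most other tissues. All of these proteins are also controlled after translation, by proteolysis of OPA1 and by phosphorylation and other modification of DNM1L, none of which a read count per gene shows.

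Library totals ran from 12844534 to 13537519 counts, and the 10 genes had 102 to 2896 counts in a library. The targeted gene, DNM1, had 127, 127 and 133 CPM (counts normalised to a common library total after TMM scaling) in shControl replicates 1, 2 and 3 and 126, 97.8 and 125 CPM in shDNM1 replicates 1, 2 and 3. Its log2 fold change of -0.15 (SE 0.083) did not pass the test (adjusted p = 0.189). Most of that difference came from shDNM1 replicate 2, at 97.8 CPM, and leaving that library out gave a log2 fold change of -0.04 (adjusted p = 0.718). Without shDNM1 replicate 1 it was -0.20 and passed (adjusted p = 0.0399). The second set is therefore called the libraries labelled shDNM1, and directions are between the labelled sets. All 8 epithelial and intestinal markers checked reached 10 counts in a library. Their summed TPM was 10439 to 11139 in shControl and 11770 to 12617 in shDNM1. Most of that sum was KRT8, at 5964 to 6359 TPM in shControl and 6845 to 7221 in shDNM1. The markers did not move together. KRT8, KRT18, KRT19 and CDX2 were higher in every shDNM1 library. EPCAM (793 to 849 TPM in shControl, 691 to 721 in shDNM1) and VIL1 (162 to 166 and 139 to 158) were lower in every one. LGALS4 and CDH17 overlapped between the sets. Both were near the bar of 10 counts, at 6 to 17 and 11 to 24 counts in a library. Of 4 immune markers 0 reached 10 counts, and CD3E was at 0 in every library. Of 5 fibroblast markers 3 reached 10 counts, with a summed TPM of 28.6 to 36.1 in shControl and 36.2 to 54.3 in shDNM1. Most of the fibroblast sum was LUM, at 23.1 to 28.9 TPM in shControl and 28.7 to 46.1 in shDNM1. LUM and COL1A1 overlapped between the sets, and PDGFRB was higher in every shDNM1 library. COL1A2 and DCN had at most 1 count in a library. Of 3 endothelial markers 2 reached 10 counts, with a summed TPM of 7.20 to 8.35 in shControl and 6.82 to 9.06 in shDNM1. Their part in the results was not tested.

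MFN1 and MIEF1 rose in the libraries labelled shDNM1, and ATL2, ATL1 and OPA1 fell. The other 5, MFN2, DNM1L, FIS1, MFF and ATL3, did not pass the test. Each test was edgeR's quasi-likelihood test with p-values adjusted by Benjamini-Hochberg for all 16744 tested genes and called under 0.05. All 10 genes were among those tested. Over all genes tested 31.9% were called, 15.6% higher and 16.2% lower, and with 10 genes the counts of 2 and 3 are not read as a property of the set. The median log2 fold change of the 10 was -0.07 and its median absolute value 0.19, against -0.013 and 0.24 over all genes tested. In 7 of the 10 genes every library of one set lay above every library of the other, as was so for 44.3% of all genes tested.

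**Figure D1:**
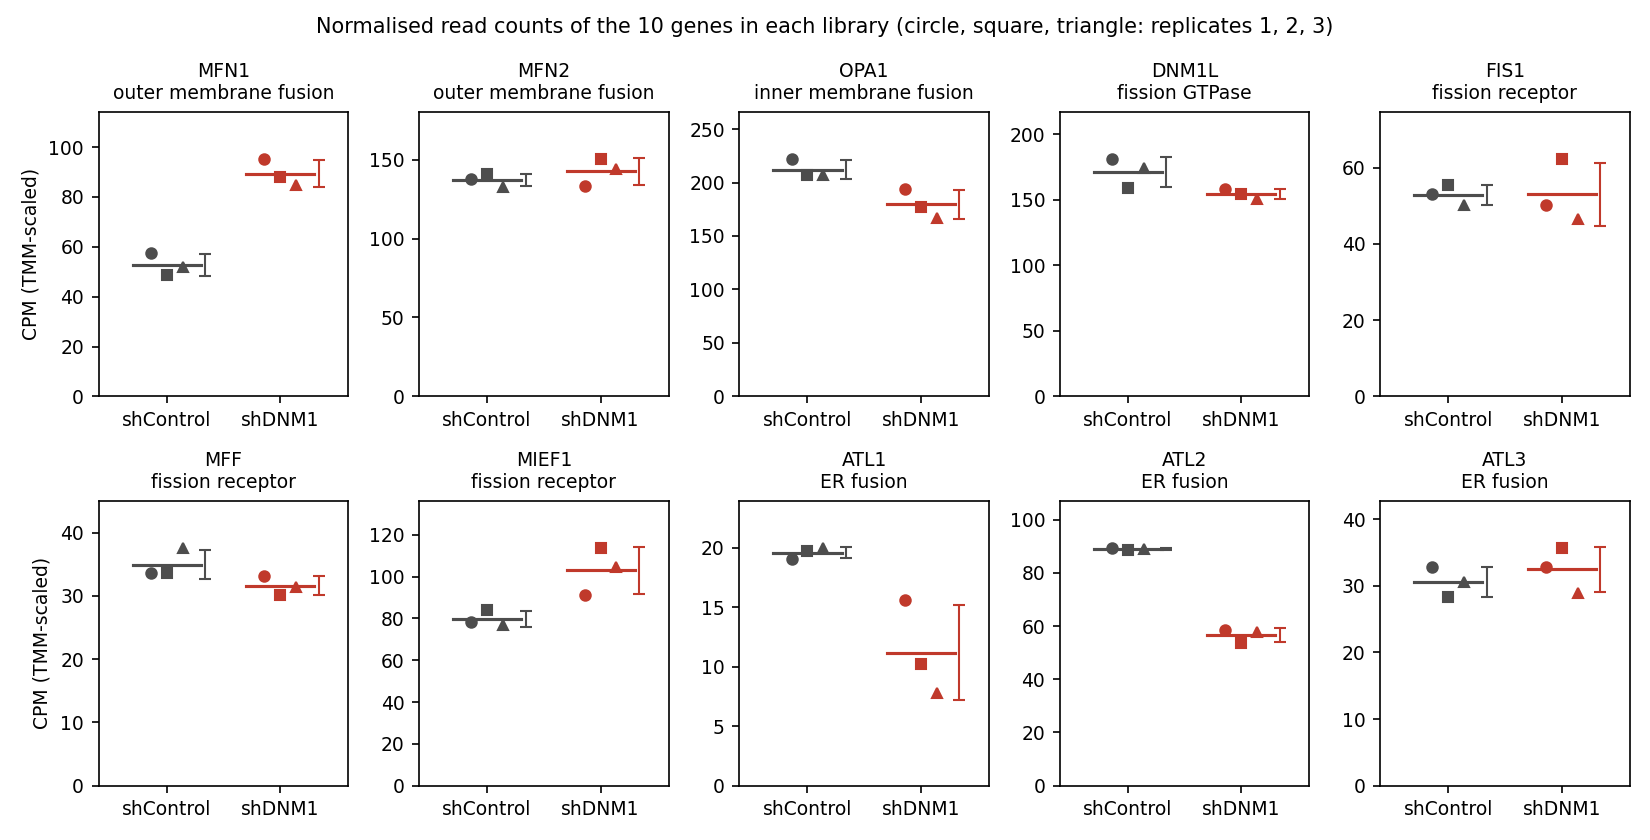
TMM-scaled CPM (vertical axes, from 0) of the 10 genes in 3 shControl (grey) and 3 shDNM1 (red) libraries, with the mean as a line and the SD of 3 libraries as a bar. MFN1 and MIEF1 were higher in every shDNM1 library, and ATL1, ATL2 and OPA1 lower, while MFN2, FIS1 and ATL3 overlapped. DNM1L and MFF were also lower in every shDNM1 library, by narrow gaps, and did not pass the test.

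The promoters of MFN1 and ATL2 are shown first, because of the 10 genes these had the smallest p in each direction. The windows are the 250 bases before the RefSeq start on GRCh38.p14, written 5' to 3' on the gene's strand, chr3:179347459-179347708 on the plus strand for MFN1 and chr2:38377274-38377523 on the minus strand for ATL2. Capitals mark matches to 4 motifs searched on both strands.
MFN1: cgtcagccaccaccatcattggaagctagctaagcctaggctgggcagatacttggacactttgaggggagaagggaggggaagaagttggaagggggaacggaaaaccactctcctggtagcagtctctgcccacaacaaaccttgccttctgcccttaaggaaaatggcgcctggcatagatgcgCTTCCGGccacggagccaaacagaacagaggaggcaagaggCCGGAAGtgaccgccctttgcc
ATL2: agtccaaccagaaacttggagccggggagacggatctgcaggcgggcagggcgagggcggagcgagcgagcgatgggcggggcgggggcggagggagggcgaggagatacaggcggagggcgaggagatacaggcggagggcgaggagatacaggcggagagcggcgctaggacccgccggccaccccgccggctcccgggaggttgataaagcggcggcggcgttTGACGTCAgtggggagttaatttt
The motifs were the ETS core CCGGAAG bound by GABPA, the NRF1 core GCATGCGC, the E-box CACGTG and the cyclic AMP response element TGACGTCA, none of which contains another. MFN1 held 2 ETS matches and the ATL2 window shown held 1 cyclic AMP response element. The other ATL2 windows, chr2:38378585-38378834 and chr2:38376531-38376780, held 0 matches. The table had 15 windows for the 10 genes, because ATL1, ATL2 and MFF have more than 1 listed start. ETS matches occurred in 3 of the 15, those of MFN1, MIEF1 and FIS1, against 8.52% of all 35116 promoter windows of this length. The NRF1 core occurred in 1, that of OPA1 (2.63% of all), the cyclic AMP response element in 1 (1.65%), and the E-box in 0 (6.35%). All 10 genes are protein-coding. Among the 21492 windows of protein-coding genes the shares were higher, at 10.75%, 3.27%, 2.05% and 7.37% in the same order of motifs. These are matches of letters, and binding was not measured.

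Of the outer-membrane fusion genes, MFN1 rose and MFN2 did not pass the test. MFN1 (ENSG00000171109, GRCh38 chromosome 3, 179347709 to 179394936, plus strand) had 57.6, 48.8 and 51.9 CPM in shControl replicates 1 to 3 and 95.2, 87.9 and 84.8 CPM in the libraries labelled shDNM1. The lowest shDNM1 library stood at 161% of the shControl mean and the highest at 180.5%, and the sets did not overlap. The rise was 1.69-fold (log2 fold change 0.76, SE 0.078, 95% interval 0.60 to 0.92, adjusted p = 7.55e-07). It passed the test with each library left out in turn, with log2 fold changes of 0.70 to 0.83. MFN2 (ENSG00000116688, chromosome 1, 11980181 to 12015211, plus strand), which also tethers mitochondria to the ER, had 138, 141 and 133 CPM in shControl and 133, 150.4 and 144 CPM in shDNM1. The MFN2 values of the sets overlapped, with a log2 fold change of 0.06 (95% interval -0.08 to 0.19, adjusted p = 0.547) that turned negative, at -0.0022, on the log2(TPM + 1) scale.

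The balance of the mitofusins is given per gene length, with the deposited TPM (transcript abundance scaled by gene length and to a common total). The ratio of MFN1 to MFN2 was 0.382, 0.318 and 0.358 in the shControl libraries and 0.654, 0.535 and 0.538 in those labelled shDNM1. Every shDNM1 ratio lay above every shControl ratio. The mean log2 ratio differed by 0.70 (two-sided exact permutation test, p = 0.1, which is the lowest value possible for 3 libraries against 3; adjusted p = 0.2 over 4 pairs of genes). MFN1 made up 26.0% ± 1.79 of the summed mitofusin TPM in shControl and 36.5% ± 2.66 in shDNM1 (SD, n = 3). The sum of the mitofusins was 118 ± 4.42 TPM in shControl and 138 ± 0.883 TPM in shDNM1 (SD, n = 3). TPM are not TMM-scaled, so TPM sums and levels, here and below, are compared between the sets on another scale than CPM. Over all genes tested the median log2 fold change was -0.067 on log2(TPM + 1), against -0.013 in the edgeR fit.

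OPA1, on the inner membrane, fell slightly. OPA1 (ENSG00000198836, chromosome 3, 193593144 to 193697811, plus strand) had 222, 207 and 207 CPM in shControl and 194, 177 and 167 CPM in shDNM1. All shDNM1 values were lower, at 78.9% to 91.5% of the shControl mean. The log2 fold change was -0.24 (SE 0.067, 95% interval -0.38 to -0.10, adjusted p = 0.0104). The call was lost without shControl replicate 1 (adjusted p = 0.0817) or shDNM1 replicate 3 (adjusted p = 0.0767). An antisense gene, OPA1-AS1, shares 208 exonic bases with OPA1 and had 2 to 15 counts. MFN1, MFN2 and OPA1 together summed to 219 ± 9.73 TPM in shControl and 219 ± 8.20 TPM in shDNM1 (SD, n = 3). Within that sum the share of MFN1 was 14.1% ± 0.827 in shControl and 22.9% ± 0.935 in shDNM1, and the share of OPA1 was 45.9% ± 0.564 and 37.2% ± 1.97 (SD, n = 3).

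**Figure D2:**
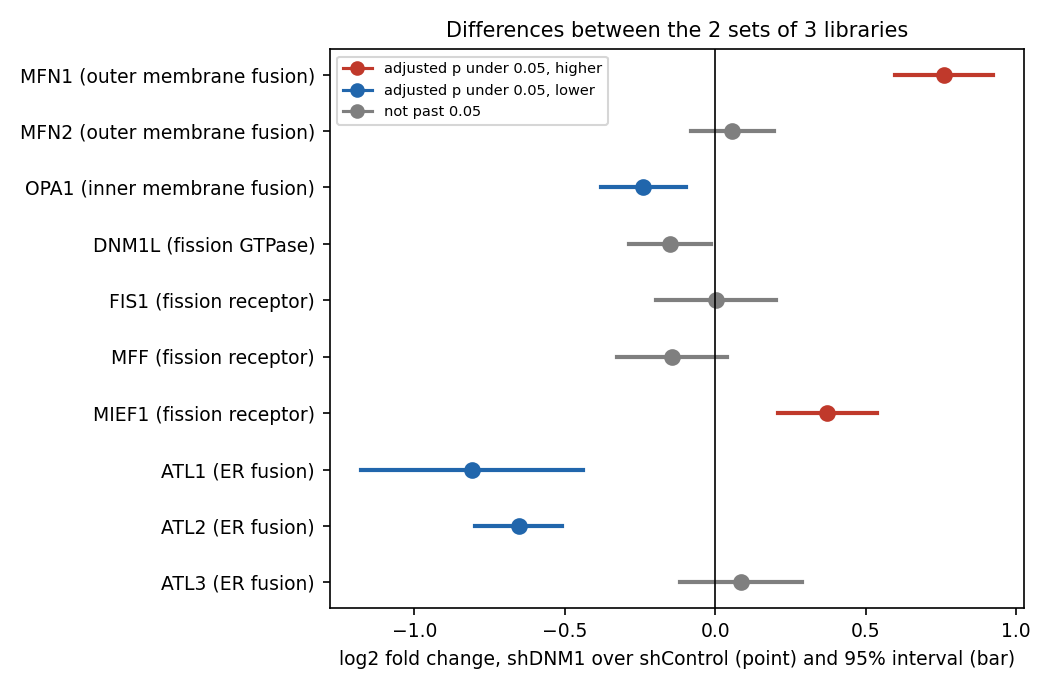
Log2 fold change of shDNM1 over shControl (horizontal axis) with its 95% interval for each of the 10 genes, from 3 libraries a set. MFN1 and MIEF1 (red) lie above 0, OPA1, ATL1 and ATL2 (blue) below, and the 5 grey genes did not pass the test.

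The fission GTPase gene itself did not pass. DNM1L (ENSG00000087470, chromosome 12, 32679200 to 32745650, plus strand) had 181, 159.2 and 174 CPM in shControl and 158.6, 155 and 150.4 CPM in shDNM1. The sets were apart by the gap between 159.2 and 158.6 CPM only. The log2 fold change was -0.15 (SE 0.065, 95% interval -0.29 to -0.01) with an adjusted p of 0.0877. DNM1L was called lower without shControl replicate 2 (adjusted p = 0.0469) or shDNM1 replicate 1 (adjusted p = 0.0409), and when libraries were scaled by size only (adjusted p = 0.0358). The ratio of OPA1 to DNM1L was 1.16 ± 0.053 in shControl and 1.09 ± 0.053 in shDNM1 (TPM, SD, n = 3), and the sets overlapped (exact two-sided permutation p = 0.2, adjusted p = 0.267). Among the other dynamins, DNM2 was 1.21-fold higher (adjusted p = 0.00165). DNM3 was 1.48-fold higher (adjusted p = 0.0429), a call lost under 12 of 18 other settings, 5 of them single libraries left out: shControl replicates 1, 2 and 3 (adjusted p = 0.107, 0.126 and 0.0739) and shDNM1 replicates 1 and 2 (adjusted p = 0.111 and 0.0959).

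Among the receptors of DNM1L, MIEF1 rose and MFF and FIS1 did not pass. MIEF1 (ENSG00000100335, chromosome 22, 39499432 to 39518132, plus strand), which encodes the outer-membrane anchor MiD51, had 78.1, 84.0 and 76.7 CPM in shControl and 91.2, 114 and 105 CPM in shDNM1. The sets did not overlap, but the shDNM1 libraries spread widely, from 115% to 143% of the shControl mean. The rise was 1.29-fold (log2 fold change 0.37, SE 0.079, 95% interval 0.21 to 0.54, adjusted p = 0.00135), and it passed with each library left out in turn (log2 fold changes of 0.30 to 0.46). MFF (ENSG00000168958, chromosome 2, 227325151 to 227357833, plus strand), regarded as the main receptor in mammalian cells, had 33.6, 33.6 and 37.5 CPM in shControl and 33.2, 30.1 and 31.5 CPM in shDNM1. The shDNM1 values of MFF were all lower, but the sets were apart by the gap between 33.2 and 33.6 CPM only. Its log2 fold change was -0.14 (95% interval -0.33 to 0.04, adjusted p = 0.226). FIS1 (ENSG00000214253, chromosome 7, 101239458 to 101252316, minus strand) had 53.0, 55.3 and 50.2 CPM in shControl and 50.2, 62.3 and 46.4 CPM in shDNM1. The shDNM1 values of FIS1 lay on both sides of shControl, with shDNM1 replicate 2 the highest of all 6. Its log2 fold change of 0.0026 (95% interval -0.20 to 0.20, adjusted p = 0.988) changed sign under 9 of 18 other settings.

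On the TPM scale the 3 receptors together were 233 ± 6.73 in shControl and 233 ± 19.9 in shDNM1 (SD, n = 3). MIEF1 supplied 18.3% ± 0.277 of that sum in shControl and 22.8% ± 1.97 in shDNM1, with no overlap between the sets. FIS1 supplied the most, 68.7% ± 1.14 and 65.9% ± 2.84 (SD, n = 3), and overlapped. The ratio of MFF to FIS1 was 0.189 ± 0.021 in shControl and 0.173 ± 0.031 in shDNM1, with overlapping libraries (exact two-sided permutation p = 0.6, adjusted p = 0.6). Without shDNM1 replicate 2, the log2 difference of that ratio was 0.019 in place of -0.14.

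The atlastins differed among themselves: ATL2 and ATL1 fell, and ATL3 did not pass. ATL2 (ENSG00000119787, chromosome 2, 38293954 to 38377285, minus strand) had 89.3, 88.8 and 89.2 CPM in shControl and 58.6, 53.6 and 57.6 CPM in shDNM1. The coefficient of variation of the shControl libraries was 0.326%, and each shDNM1 library held 60.2% to 65.7% of their mean. That variation is less than counting alone tends to give at 1157 to 1205 counts, so it is not a measure of reproducibility. The log2 fold change was -0.65 (SE 0.068, 95% interval -0.80 to -0.51, adjusted p = 9.55e-07), and it was -0.68 to -0.62 with each library left out in turn. ATL3 (ENSG00000184743, chromosome 11, 63624087 to 63671921, minus strand) had 32.9, 28.3 and 30.5 CPM in shControl and 32.8, 35.6 and 28.96 CPM in shDNM1. These ATL3 values overlapped (log2 fold change 0.09, 95% interval -0.12 to 0.29, adjusted p = 0.539).

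ATL1 (ENSG00000198513, chromosome 14, 50532509 to 50634017, plus strand) was the lowest of the 10 genes, with 19.1, 19.7 and 19.97 CPM in shControl and 15.6, 10.2 and 7.75 CPM in shDNM1. The shDNM1 libraries ranged from 39.6% to 79.7% of the shControl mean, a coefficient of variation of 35.9% against 2.33% in shControl. The shControl value is likewise below what counting alone tends to give, here at 249 to 268 counts. The log2 fold change was -0.81 (SE 0.17, 95% interval -1.18 to -0.44, adjusted p = 0.00162), and it was -1.13 without shDNM1 replicate 1 and -0.60 without shDNM1 replicate 3. ATL1 is uncertain because the genes SAV1 and MAP4K5, on the opposite strand, share 840 and 147 of its exonic bases in GENCODE release 29, 19.3% and 3.37% of them, and strand use in counting is not given in the sources used here. SAV1, which encodes a scaffold protein of the Hippo pathway, had 62.8 ± 4.18 CPM in shControl and 34.4 ± 1.31 CPM in shDNM1 (SD, n = 3), a log2 fold change of -0.87. MAP4K5 had 81.9 ± 4.76 and 81.2 ± 6.48 CPM (SD, n = 3). The part of SAV1 reads in the ATL1 counts was not tested.

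Per gene length, ATL2 dominated the atlastins in both sets. The ratio of ATL2 to ATL3 was 4.92, 5.69 and 5.30 in the shControl libraries and 3.24, 2.73 and 3.61 in those labelled shDNM1. No shDNM1 ratio reached the lowest shControl ratio. The mean log2 ratio differed by -0.74 (exact two-sided permutation p = 0.1, the smallest possible, and adjusted p = 0.2). The summed atlastin TPM came to 96.1 ± 2.35 in shControl and to 63.6 ± 4.96 in shDNM1 (SD, n = 3). The share of ATL3 in that sum came to 14.0% ± 0.906 in shControl and to 21.7% ± 2.32 in shDNM1 (SD, n = 3).

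**Figure D3:**
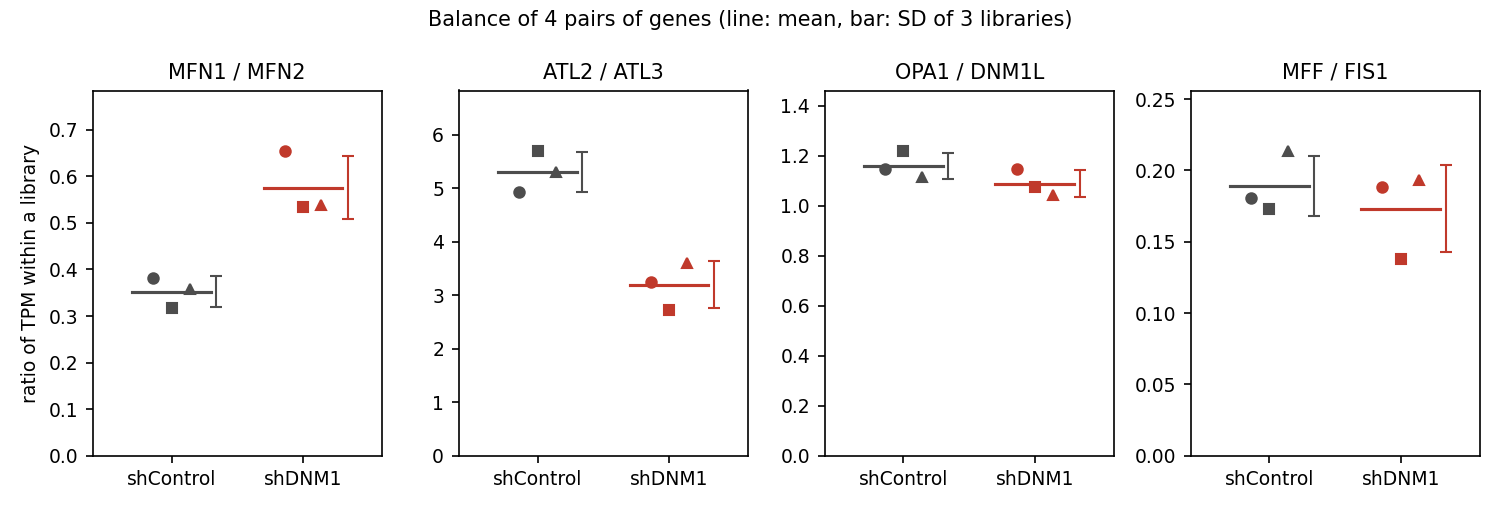
Ratio of deposited TPM of 2 genes within each library (vertical axes, from 0) for 4 pairs, with shControl in grey and shDNM1 in red, the mean as a line and the SD of 3 libraries as a bar. The ratio of MFN1 to MFN2 was higher and that of ATL2 to ATL3 lower in every shDNM1 library, while the other pairs overlapped.

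The order of the levels per length changed in the middle of the range. In shControl, FIS1 was highest at 160.2 ± 7.16 TPM, followed by OPA1 (100.5 ± 5.45), MFN2 (87.6 ± 2.51), DNM1L (86.8 ± 6.84), ATL2 (71.4 ± 1.18), MIEF1 (42.6 ± 1.68), MFN1 (30.9 ± 3.02), MFF (30.2 ± 1.99), ATL3 (13.5 ± 1.20) and ATL1 (11.3 ± 0.179; SD, n = 3). Neighbours in that order did not overlap except MFN2 with DNM1L and MFN1 with MFF. In shDNM1, the TPM of FIS1 was 153.8 ± 19.5, MFN2 87.4 ± 3.21, OPA1 81.8 ± 7.46, DNM1L 75.1 ± 3.31, MIEF1 53.0 ± 4.37, MFN1 50.2 ± 3.96, ATL2 43.6 ± 3.32, MFF 26.3 ± 2.03, ATL3 13.8 ± 1.16 and ATL1 6.20 ± 2.34 (SD, n = 3). There MFN2 and OPA1, OPA1 and DNM1L, and MIEF1 and MFN1 overlapped. ATL2 stood above MIEF1 and MFN1 in every shControl library and below both in every shDNM1 library.

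**Figure D4:**
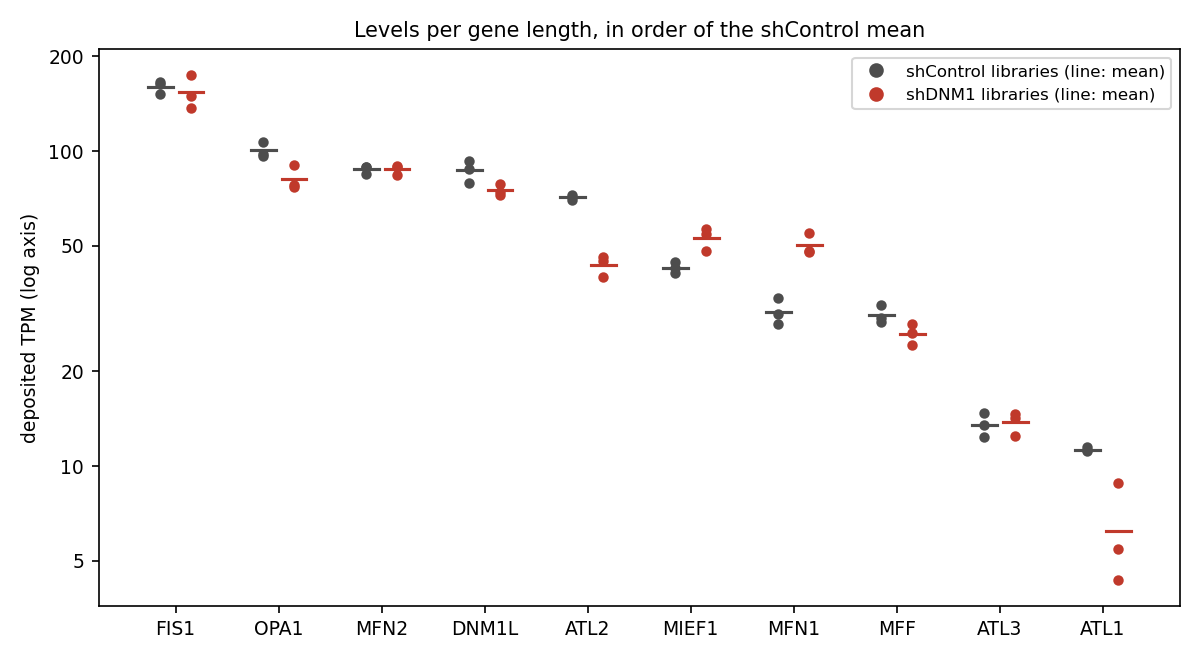
Deposited TPM (vertical log axis) of the 10 genes in 3 shControl (grey) and 3 shDNM1 (red) libraries, ordered by the shControl mean, which is drawn as a line beside the shDNM1 mean. ATL2 lies above MIEF1 and MFN1 in shControl and below both in shDNM1.

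Genes that work with the 10 were examined in 7 lists of 120 genes, of which 117 passed the low-count filter. Of these 29 rose and 11 fell, 24.8% and 9.40% of those tested, beside 15.6% and 16.2% of all genes tested. The median log2 fold change of the 117 was 0.07. Counts are given for each list with the members that had the smallest p and those that went against the list's majority.

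Of the partners of fusion and OPA1 processing, 4 of 16 rose, 1 fell and 11 did not pass. MIGA1, which promotes fusion at the outer membrane, went from 20.6 ± 0.608 to 29.3 ± 1.25 CPM (SD, n = 3, adjusted p = 0.000413). PHB1, a subunit of the inner-membrane prohibitin ring that restrains OPA1 cleavage, was 1.21-fold higher, and OPA3 1.26-fold higher. MSTO1, which supports fusion from the cytosol, was at 0.692 of shControl. MSTO1 was not called when shControl replicate 2 (adjusted p = 0.0823), shControl replicate 3 (0.0552), shDNM1 replicate 1 (0.0543) or shDNM1 replicate 3 (0.0901) was left out, which left 0 members lower.

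Of the fission adaptors and DNM1L regulators, 6 of 21 rose, 0 fell and 15 did not pass by edgeR. At an unadjusted p under 0.05 the counts were 7 higher and 1 lower, and DESeq2 and limma-voom each also called 6 higher and 0 lower. PINK1, the kinase that starts the removal of damaged mitochondria, had the largest rise of the 4 named, from 8.35 ± 0.503 to 13.3 ± 0.624 CPM (SD, n = 3, adjusted p = 0.000744). INF2, a formin that builds actin where the ER meets a mitochondrion before division, went from 433 ± 7.29 to 542 ± 19.2 CPM (SD, n = 3). SENP3 and SENP5, proteases that remove SUMO from DNM1L among other proteins, were 1.34-fold and 1.19-fold higher. Without shDNM1 replicate 1, 1 member of this list was called lower.

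In the list for cristae and the MICOS complex, which shapes the inner membrane together with OPA1, 1 of 12 rose, 1 fell and 10 did not pass. APOOL fell to 0.827 of shControl, a call lost without shControl replicate 3 (adjusted p = 0.0808). TMEM11 was 1.21-fold higher with an adjusted p of 0.048, which 13 of 18 other settings did not keep, including those that left out a shControl library (adjusted p = 0.0935, 0.0762 and 0.183 for replicates 1, 2 and 3) or, from the other set, replicates 2 and 3 (adjusted p = 0.205 and 0.0513). MICOS10 and MTX2 had the next smallest p, with fold values of 1.26 and 0.892, and did not pass (adjusted p = 0.146 and 0.116). Without shDNM1 replicate 2, 2 members were called lower.

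Of the genes for mitochondrial transport and contact with the ER, 6 of 16 rose, 1 fell and 9 did not pass. The 1 that fell, PDZD8, encodes an ER tether that transfers lipid, and went from 245.5 ± 6.69 to 134.8 ± 4.39 CPM (SD, n = 3, adjusted p = 8.03e-09). RMDN3, the outer-membrane partner of the ER proteins VAPA and VAPB, went the other way, from 35.4 ± 0.824 to 51.9 ± 1.97 CPM (SD, n = 3, adjusted p = 2.22e-05). ITPR3, a calcium channel of the ER, was 1.37-fold higher and HSPA9, the mitochondrial chaperone linked to it, 1.24-fold higher. Without shDNM1 replicate 1 or 3, 2 members were called lower.

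Among the genes that shape ER tubules and sheets beside the atlastins, 4 of 23 rose, 3 fell and 16 did not pass. LNPK, which stabilises the junctions that atlastins make, was at 0.793 of shControl, CKAP4, a spacer of ER sheets, at 0.675 and REEP6, a curvature protein, at 0.655. The REEP6 call was lost without shControl replicate 2 (adjusted p = 0.0505). RAB18, a small GTPase of the ER and lipid droplets, went from 44.4 ± 5.28 to 67.8 ± 9.23 CPM, and TMEM33 from 138 ± 4.73 to 188.5 ± 6.64 CPM (SD, n = 3). RTN1 and REEP1 had at most 0 and 4 counts in a library and were not tested.

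Peroxisomes divide with DNM1L, MFF and FIS1, and of 9 genes of their division and membrane 2 rose, 3 fell and 4 did not pass. ACBD5, which tethers peroxisomes to the ER, went from 73.8 ± 2.32 to 43.9 ± 2.48 CPM (SD, n = 3, adjusted p = 4.57e-07). PEX3 and PEX5, which act in membrane protein insertion and matrix protein import, were 1.34-fold and 1.35-fold higher.

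Genes of mitochondrial mass and biogenesis were mixed, with 6 of 20 higher, 2 lower and 12 not past the test. CS, citrate synthase, went from 325 ± 4.93 to 259 ± 21.7 CPM, and the import receptor gene TOMM22 was at 0.813 of shControl. POLG, the polymerase of mitochondrial DNA, was 1.37-fold and ESRRA, a nuclear receptor that drives mitochondrial genes, 1.33-fold higher. The number higher was 2 without shControl replicate 3 and 3 without shDNM1 replicate 3. TOMM22 missed the threshold when shControl replicate 2 or, separately, shDNM1 replicate 3 was left out (adjusted p = 0.0548 and 0.0685), which left 1 lower. The 13 protein genes of mitochondrial DNA took 2.24% to 2.28% of counts in shControl and 2.42% to 2.67% in shDNM1, and the part of this in the values of the 10 genes was not tested.

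**Figure D5:**
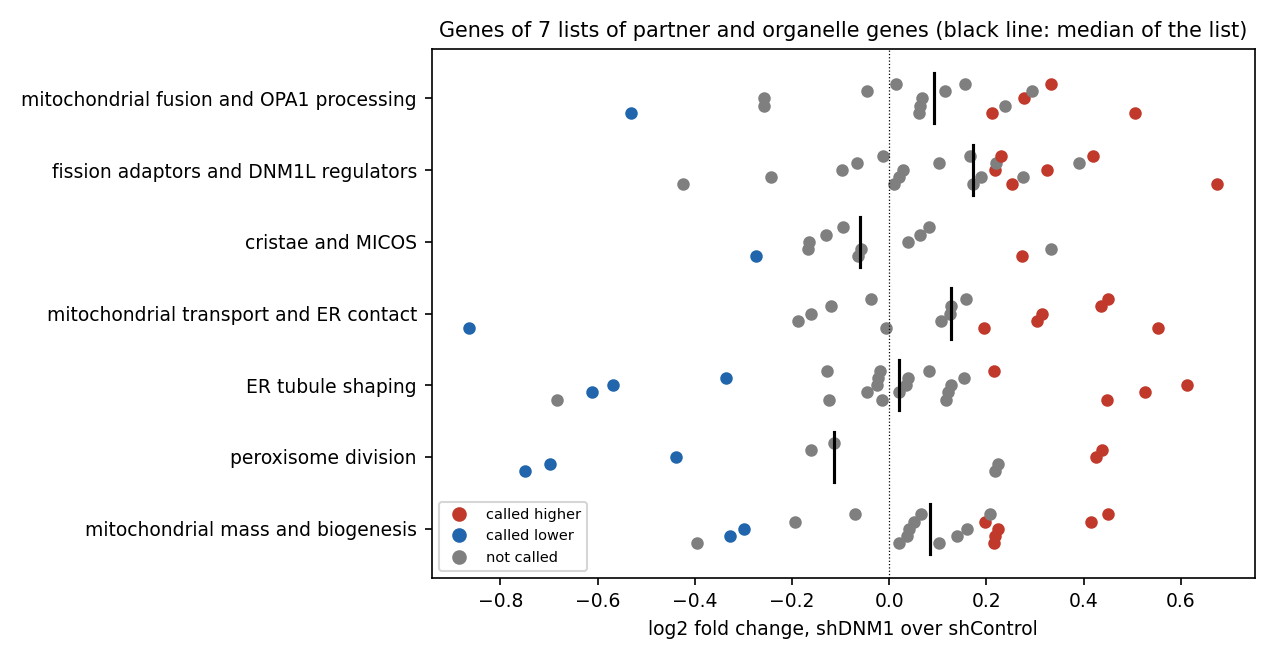
Log2 fold change of shDNM1 over shControl (horizontal axis) for the 117 tested genes of 7 lists, 1 point a gene, coloured by its call, with the list median as a black line. The medians lie between -0.11 and 0.17, and called genes lie on both sides of 0 in every list but that of fission adaptors and DNM1L regulators, where 6 were higher and 0 lower.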

How the data were processed

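RNA of 6 SW620 samples was made into mRNA-seq libraries, per the labels' protocols, and samples were grouped by title. The deposited counts are whole-number reads per gene, not normalised, made by the authors on the GRCh38 build (per the submitters' processing notes). For the aligner, counter, annotation release and strand setting: not given in the sources used here. The deposited TPM table is listed as a score only because every column in it exceeds 1000000 in total when repeated gene names are kept. In both tables the 2328 lines that share 453 names (identical values) were collapsed to 1 line a name, after which each TPM column summed to 1000000. Of the per-sample columns, 0 were left unused.

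Counts were fitted with edgeR 4.0.16 in R 4.3.3: filterByExpr, TMM, glmQLFit and glmQLFTest (two-sided), Benjamini-Hochberg adjustment over 16744 genes, threshold 0.05. The SE is the log2 fold change over the root of its F, and 95% intervals use the fit's total degrees of freedom. CPM are TMM-scaled. Ratios of TPM within a library were compared by exact permutation. Replicates correlated at 0.987 or more on log2 CPM, and no pair of libraries agreed within sampling noise (chi-square per gene at least 2.38). Promoter sequences are RefSeq's (GRCh38.p14), and exon overlaps are from GENCODE release 29.

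Named genes were the 10, DNM1 to DNM3, and for each list the 4 lowest p and any called members against its majority. Not every gene this rule names is reported here. The genes SAV1 and MAP4K5 were added after their overlap with ATL1 was seen. The members and lists were chosen with earlier results of these data known. On simulated counts for this comparison (16363 genes tested, 50 changed at each size) the test recovered 30% of 1.25-fold, 66% of 1.5-fold, 86% of 2-fold and 94% of 4-fold changes, with 9 false calls. Alternatives were other scalings, filters and thresholds, DESeq2 1.42.0, limma 3.58.1 (voom, and trend with a pseudocount of 1 or of 0.1 added to TPM before log2), a robust fit, a replicate block and leaving out each library.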

Additional observations from a re-analysis of the deposited data

How the results depend on the processing

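MFN1 and MIEF1 were called higher and ATL1 and ATL2 lower under all 18 alternatives, so that 2 of the 10 genes were higher throughout, and 2 to 4 were lower. OPA1 left the lower set at a threshold of 0.01 and without shControl replicate 1 or shDNM1 replicate 3, and DNM1L joined it without shControl replicate 2 or shDNM1 replicate 1 and with library size alone. The replicate numbers come from titles only. Same-numbered libraries had correlations of 0.10, 0.06 and -0.03 of their deviations, not every library correlated best with its own number, and with a replicate block DNM1L was called lower (adjusted p = 0.0452) and 2964 genes were higher and 3116 lower over all genes tested. FIS1 turned negative with upper-quartile scaling (-0.014), library size alone (-0.035), no low-count filter (-0.0020), limma-voom (-0.0089), log2(TPM + 1) (-0.064), log2(TPM + 0.1) (-0.065) and the replicate block (-0.0035), and ran from -0.13 to 0.091 with a library left out. MFN2 turned to -0.0022 and -0.0023 on the 2 TPM scales. Of the pathway genes, 19 rose on each TPM scale, 17 rose and 7 fell at a threshold of 0.01, and with a library left out 18 to 35 rose and 7 to 12 fell. The log2 ratio of MFF to FIS1 differed by -0.22 to 0.019 with a library left out. The causes of these shifts were not tested. A ratio over 3 against 3 libraries cannot give a p under 0.1, nor one over 2 against 3 a p under 0.2. The simulated counts held far fewer changed genes than the 5337 called in the data. Benjamini-Hochberg adjustment is stricter where fewer genes change, so the simulated recovery of small changes is not the recovery in these data. A gene not called may still differ between the sets.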

Other observations

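Genes whose pattern over the 6 libraries was most like each called member were sought among 10786 protein-coding genes with an average log2 CPM of at least 2, by the root mean square difference of gene-centred log2 CPM. The 2 nearest to ATL2 were CTTN, an actin-binding protein of the cell cortex, and MYO5C, a myosin motor, at differences of 0.016 and 0.034. CTTN went from 333 ± 3.59 to 211 ± 11.9 CPM (SD, n = 3). The 2 nearest to MFN1 were SLC30A7, a zinc transporter of the Golgi, and KLHL28, at 0.052 and 0.063, with SLC30A7 at 50.6 ± 3.32 and 83.4 ± 4.24 CPM (SD, n = 3). For OPA1 they were SLC18B1 and APIP (0.021 and 0.023), and for MIEF1 ADGRE2 and SZRD1 (0.026 and 0.029). ATL1 had the loosest neighbours, BCHE and LEPR (0.083 and 0.085), and only 2 genes came within 0.1 of it. That number was 24 for MFN1, 175 for ATL2, 704 for MIEF1 and 839 for OPA1. It was smaller the larger the member's change, because the difference is not scaled, so it does not mark a pattern as unusual. The neighbours were picked for likeness to a member that differed between the 2 sets, so their own difference follows from the choice. Likeness over 6 libraries says nothing of common control.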
